A study of Mus musculus with 2 samples.

Results

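Amino acid transporters of 6 gene families were read in bone marrow cultures that had been driven towards myeloid-derived suppressor cells (MDSCs), a mixture of immature granulocytic and monocytic cells able to dampen T cell responses. The members were all genes on the array with 1 symbol in the platform annotation that began with Slc1a, Slc3a, Slc7a, Slc36a, Slc38a or Slc43a, without Slc7a2. This rule found 41 of the 18193 genes on the array. Slc7a6os and Slc36a1os, 2 records that are named for lying on the strand opposite to a transporter gene, matched the wording but are no transporters, so the counts below cover the other 39. Each gene was read from its brightest probe set, the group of short probes that reports 1 transcript.

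One culture of C57BL/6 bone marrow received a control siRNA and the other silncMDSC, the siRNA against the long non-coding RNA called lncMDSC in the labels and lnc-C/EBPβ in the study. Both cultures were then kept in medium with GM-CSF and IL6 for 4 days, and total RNA was hybridised to 1 Affymetrix mouse genome array per culture. The question was which genes depended on lnc-C/EBPβ during this differentiation. Each group was a single array, so differences have no replicate check and no p is given. The sources used here do not say how many mice gave the cells, and the targeted RNA itself was not analysed here, so its knockdown was not checked.

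Amino acids cross membranes largely through carriers. Light chains of the Slc7 family reach the cell surface bound to a heavy chain of the Slc3 family and mostly exchange 1 amino acid for another, whereas many Slc1 and Slc38 carriers concentrate glutamate or glutamine with the help of sodium. Slc36 carriers run with protons, Slc43 carriers let branched-chain amino acids pass along their gradient, and several members sit on the lysosome. In suppressive myeloid cells the supply of arginine, cystine and tryptophan is a known point of control, since these cells can remove such amino acids from the surroundings of T cells.

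The promoters below are shown because 3 transporters held the core of the amino acid response element (CARE), the letters read by the stress factor ATF4 together with C/EBP proteins, and because Slc36a1, a lysosomal member, held 2 E-boxes. Sequences are RefSeq windows of GRCm38.p6 from 250 bases before to 50 bases after a transcript start, 5′ to 3′ on the gene's strand. The Slc7a11 window lies at chr3:50443564-50443863 (minus strand), that of Slc1a4 at chr11:20332664-20332963 (minus strand) and that of Slc7a7 at chr14:54417895-54418194 (minus strand). Capitals mark the CARE core TGATGNAA on either strand.

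Slc7a11: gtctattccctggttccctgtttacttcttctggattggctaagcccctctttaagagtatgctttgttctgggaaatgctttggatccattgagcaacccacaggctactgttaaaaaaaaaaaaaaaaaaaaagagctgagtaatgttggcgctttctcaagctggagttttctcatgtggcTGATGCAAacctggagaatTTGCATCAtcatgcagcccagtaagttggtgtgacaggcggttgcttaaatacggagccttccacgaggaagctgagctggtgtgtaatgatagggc
Slc1a4: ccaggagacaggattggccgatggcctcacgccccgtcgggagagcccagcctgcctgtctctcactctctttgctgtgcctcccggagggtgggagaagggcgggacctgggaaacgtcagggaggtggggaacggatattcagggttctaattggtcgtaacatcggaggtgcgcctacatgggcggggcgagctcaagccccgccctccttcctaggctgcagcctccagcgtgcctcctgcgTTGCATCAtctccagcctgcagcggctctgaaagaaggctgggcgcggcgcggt
Slc7a7: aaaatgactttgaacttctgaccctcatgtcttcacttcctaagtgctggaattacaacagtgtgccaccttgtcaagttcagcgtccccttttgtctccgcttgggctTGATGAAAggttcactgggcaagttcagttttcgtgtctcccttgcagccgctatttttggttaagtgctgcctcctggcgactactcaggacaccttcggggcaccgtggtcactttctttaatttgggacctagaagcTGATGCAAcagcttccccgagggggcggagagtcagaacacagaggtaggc

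In the window of Slc36a1 at chr11:55204090-55204389 (plus strand) the capitals mark the E-box CACGTG, read by MYC and by the lysosomal regulators TFEB and TFE3.

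Slc36a1: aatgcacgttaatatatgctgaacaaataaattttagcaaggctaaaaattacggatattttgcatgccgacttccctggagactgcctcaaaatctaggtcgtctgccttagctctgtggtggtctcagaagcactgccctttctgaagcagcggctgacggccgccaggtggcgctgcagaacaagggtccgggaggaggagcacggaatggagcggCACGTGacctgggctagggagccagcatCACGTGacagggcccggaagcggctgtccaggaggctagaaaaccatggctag

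In Slc7a11 the first bases of the CARE cores lay at -66 and -47, facing each other. In Slc1a4 the core lay at -4, and in Slc7a7 the cores lay at -141 and -1 of the most upstream start. Of the 39 transporters, 29 were found in the promoter table, with 40 windows, some of which overlap. The CARE core was in 4 of these windows (10%) against 3.97% of all 32851 windows. The 4 windows belonged to 3 genes, and 2 of them, both of Slc7a7, overlap and share 1 core. The other windows of Slc7a7 held no CARE core. The E-box was in 7 of 40 windows (17.5%) against 7.15% of all. The antioxidant response element TGACNNNGC, searched on both strands, was in 6 of 40 (15%) against 12.4% of all, and in Slc36a1 it overlaps the downstream E-box. These matches describe letters and not binding.

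Of the 39 transporters, 28 were analysed because the higher of their 2 values reached the floor, an intensity of 78.4 that is the median of all probe sets on both arrays. The other 11 had intensities between 15.8 and 74.2 on both arrays. They were Slc1a1, Slc1a6, Slc3a1, Slc7a3, Slc7a9, Slc7a10, Slc7a12, Slc7a14, Slc7a15, Slc38a5 and Slc43a1. Slc3a1 and Slc7a9, the heavy and light chain of the kidney and gut cystine carrier, were thus both below the floor. Intensities of different probe sets depend on the probes, so levels are compared only between the arrays for the same probe set.

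No transporter was as much as 1.5-fold apart between the cultures. A difference is the log2(intensity + 1) in silncMDSC less that in control, and folds are derived from it. Of 28 transporters, 0 exceeded control by 1.5-fold or more and 0 lay below it by as much, against 0.948% and 1.42% of the 11920 genes that reached the floor. The transporters ran from 1.24-fold lower (Slc7a1) to 1.28-fold higher (Slc7a7). At a difference of at least 0.32, the lower threshold tried, 2 were higher, Slc7a7 and Slc38a9, and 0 lower, against 4.45% and 6.95% of all genes.

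Small differences lay more often below than above control. Of the 28, 17 were below 0 and 11 above, which is 60.7% below against 50.7% of all genes, and the median difference was -0.08 against -0.002. Over all 44 transporter probe sets above the floor the lean was smaller. Of these, 26 were below 0 (59.1% against 51.7% of all such probe sets), with a median of -0.045 against -0.007. Among the 16 transporters whose higher value reached the 75th percentile of intensity (215), 13 were below 0 and the median was -0.16, where 55.0% of 7304 genes were below 0 with a median of -0.02. The exceptions among these 16 were Slc7a7, Slc38a9 and Slc38a10. With 1 array a group, this lean cannot be set against the spread between cultures.

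**Figure D1:**
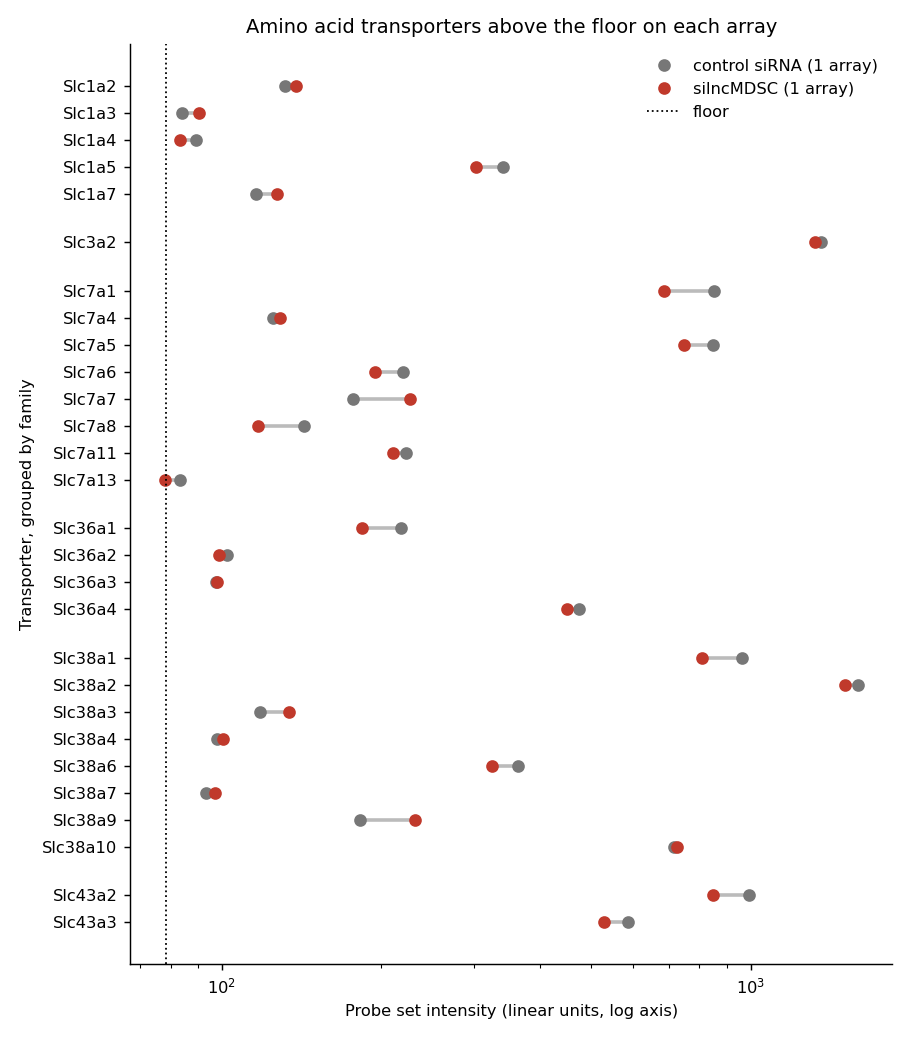
Intensity of the 28 transporters above the floor (y axis, by family) on the control siRNA array (grey) and the silncMDSC array (red), 1 array each, on a log x axis. The pairs of points lie close together, and Slc7a7 and Slc38a9 are the members farthest to the right in silncMDSC relative to control. The dotted line is the floor of 78.4.

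The only repeat measure on these arrays is a gene with several probe sets. Over 4845 genes with at least 2 probe sets above the floor, the differences given by the 2 brightest lay a median of 0.09 apart on the log2 scale, and the 90th percentile of that gap was 0.29. This corresponds to a robust SD of 0.099 for a single probe set, which holds probe noise and no spread between cultures. Of the 28 transporters, 16 (57.1%) lay farther from 0 than this SD and 7 (25%) farther than 2 such SDs (0.20). The shares over all genes were 57.5% and 28.7%. Of 9 transporters with 2 or more probe sets above the floor, 6 had all of them on 1 side of 0 (Slc1a5, Slc7a1, Slc7a6, Slc7a11, Slc38a1 and Slc38a9), and Slc38a2, Slc38a10 and Slc43a2 had them on both sides. The matching share over all genes was not analysed here, so these counts have no background to be read against. The other 19 were read by 1 probe set above the floor.

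**Figure D2:**
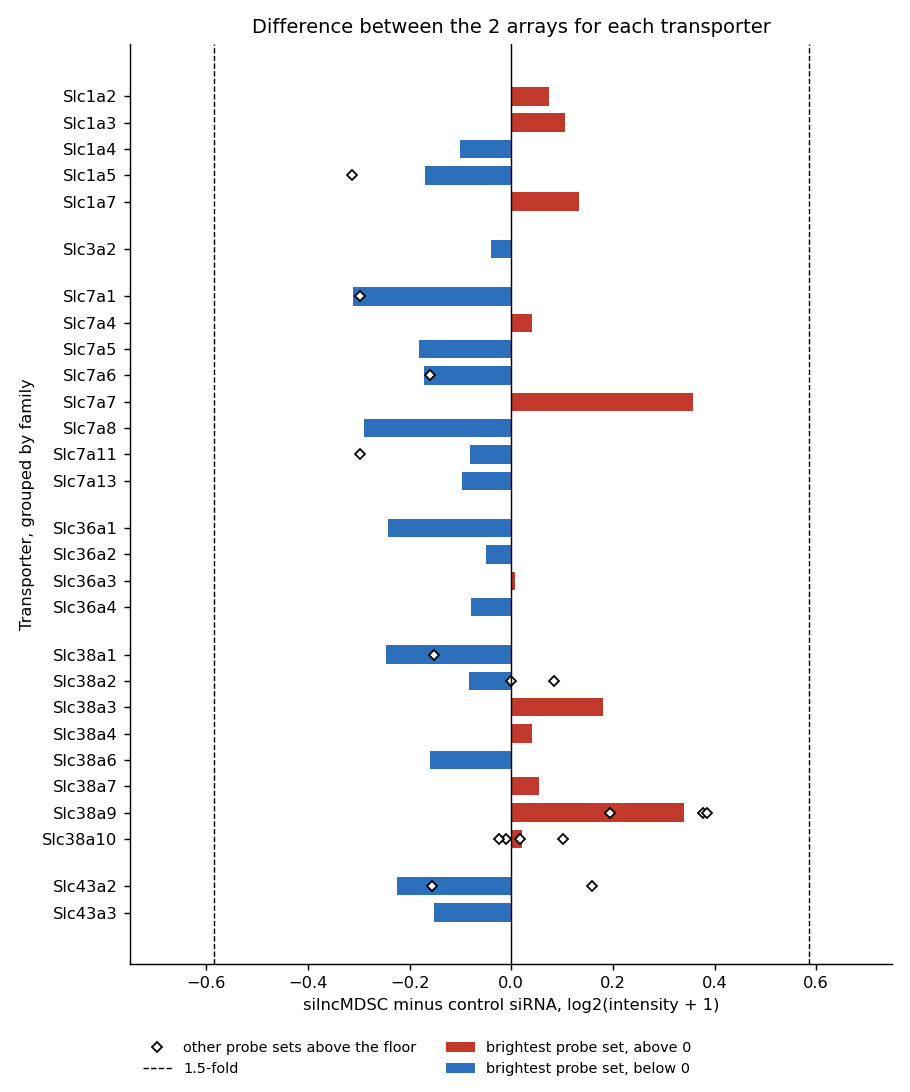
Difference between the arrays (x axis, silncMDSC minus control siRNA, log2(intensity + 1)) for each of the 28 transporters, with bars for the brightest probe set, diamonds for other probe sets above the floor and dashed lines at 1.5-fold. Every bar and diamond lies inside the dashed lines, with bars from -0.31 for Slc7a1 to 0.36 for Slc7a7.

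Slc3a2, the heavy chain that carries most Slc7 light chains to the surface, read 1360 in control against 1323 in silncMDSC (-0.04). Its light chains differed among themselves. Of the 5 partners above the floor, 4 were below control and 1 above (80% below against 50.7% of all genes). Slc7a5, which imports leucine and other large neutral amino acids, had 847 in control and 747 in silncMDSC (-0.18). Slc7a8, a second carrier of large neutral amino acids, had 143 and 117 (1.22-fold lower), and 98 of 1000 genes of the closest mean level were at least as far from 0. Slc7a8 has 1 probe set on the array.

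Slc7a6 and Slc7a7, which exchange arginine and lysine for neutral amino acids, went opposite ways. Slc7a7, the form known from monocytes and macrophages, read 177 in control against 227 in silncMDSC, which is 1.28-fold higher, the farthest above control of the 28. Of the 1000 genes nearest in level, 91 were as far from 0. Its other probe set, 1447181_s_at, was below the floor with 74.98 and 70.91 (-0.08), so the direction rests on 1 probe set. Slc7a6 had 220 in control and 195 in silncMDSC (-0.17), and its other probe set gave -0.16.

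Slc7a11, the cystine importer that feeds glutathione synthesis and releases glutamate, was on the low side in both of its probe sets but by unequal amounts. The probe set used had 223 in control and 210 in silncMDSC (-0.08), while 1443536_at had 229 and 186 (-0.30). The mean of the probe sets was -0.19. Slc7a13, a light chain of the kidney, was close to the floor with 83.42 and 77.99.

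Slc7a1, the main importer of arginine and lysine in most cells, was the transporter farthest below control. Probe set 1454991_at read 851 in control against 686 in silncMDSC, 1.24-fold lower, and 1454992_at read 644 against 523, 1.23-fold lower. Of the 1000 genes nearest in level, 129 were as far from 0. The third probe set, 1421533_at, was below the floor with 43.3 and 44.9. Slc7a1 is thus lower on both of its bright probe sets, by amounts inside 1.5-fold. Slc7a4, a relative with no established transport activity, had 125 and 129 (0.04).

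**Figure D3:**
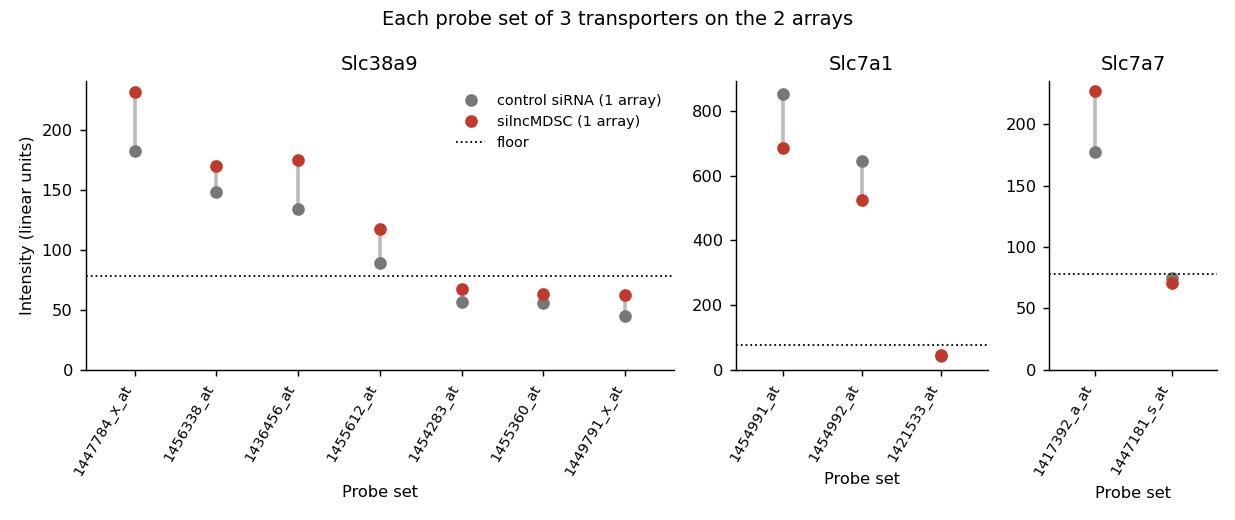
Intensity (y axis, linear, starting at 0) of each probe set of Slc38a9, Slc7a1 and Slc7a7 on the control siRNA array (grey) and the silncMDSC array (red), ordered by brightness, with the floor of 78.4 dotted. All 7 probe sets of Slc38a9 are higher in silncMDSC, the 2 bright ones of Slc7a1 are lower, and the 2 of Slc7a7 lie on opposite sides.

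Slc38a9, the lysosomal carrier that senses arginine for the growth kinase mTORC1, was higher in silncMDSC on each of its 7 probe sets. The brightest, 1447784_x_at, read 183 in control against 231 in silncMDSC, 1.27-fold higher, and 100 of the 1000 genes nearest in level were as far from 0. The other 3 above the floor differed by 0.38 (1436456_at), 0.39 (1455612_at) and 0.19 (1456338_at). Probe sets ending in _x_at can bind other transcripts, and without them the brightest was 1456338_at, with 148 and 170 (1.14-fold higher). The 3 below the floor differed by 0.17 to 0.48. Slc38a9 is thus the transporter with the most probe sets on 1 side, although its size depends on the probe set.

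The carriers of the Slc38 family lay on both sides of control. Slc38a1, a sodium-coupled glutamine importer, had 961 in control and 810 in silncMDSC (-0.25), and its other probe set gave -0.15. Slc38a2, the related importer that amino acid shortage induces, had 1594 and 1505 (-0.08) on the brightest probe set, but 560 and 594 (0.08) and 99.8 and 99.7 on the others, so it has no settled direction. Slc38a6 had 363 and 324 (-0.16), while its other probe set, below the floor, differed by 0.16. Slc38a3, a glutamine carrier best known from liver and brain, had 118 and 134 (0.18). Slc38a4, a liver carrier, had 97.8 and 101 (0.04), while its other probe set, below the floor, differed by -0.16. Slc38a7, which lets glutamine out of lysosomes, had 93.5 and 97.2 (0.06). Slc38a10 was nearly level with 716 and 727 (0.02). The family had a median of 0.03 over its 8 members above the floor, 5 of them above 0 (62.5% against 49.3% of all genes). Its median was -0.08 with the floor at the 75th percentile.

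Of the Slc1 members above the floor, the neutral amino acid carriers were below control and the glutamate carriers above it, by small amounts on their brightest probe sets. Slc1a5, a main glutamine importer of dividing cells, had 340 in control and 302 in silncMDSC (-0.17), and its dimmer probe set gave 84.0 and 67.4 (-0.31). Slc1a4, which carries serine and alanine, had 89.4 and 83.3 (-0.10), while its other probe sets, both below the floor, differed by 0.08 and 0.06. The glutamate carriers Slc1a2 (131 and 138), Slc1a3 (84.2 and 90.6) and Slc1a7 (116 and 127) differed by 0.07, 0.10 and 0.13. All 3 are best known from brain or retina. The other probe sets of Slc1a2 and Slc1a3, all below the floor, lay on both sides of 0. The glutamate carriers below the floor, Slc1a1 (-0.11) and Slc1a6 (-0.21), lay below control. The family median of 0.07 over 5 members was -0.10 with no floor and -0.17 with the floor at the 75th percentile, which leaves Slc1a5 alone.

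Slc36a1, which moves small amino acids out of lysosomes with protons, read 218 in control against 184 in silncMDSC, 1.18-fold lower. It thus lay on the other side of 0 from the lysosomal Slc38a9. Slc36a4, a relative with high affinity for proline and tryptophan, had 474 and 449 (-0.08). Slc36a2 had 102 and 98.9 (-0.05), and Slc36a3 had 97.6 and 98.0, a difference of 0.007 that turned negative with a loess trend on level removed and after another quantile normalization.

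In the Slc43 family, Slc43a2, which lets leucine and other branched-chain amino acids pass, was uncertain. Its brightest probe set had 991 in control and 848 in silncMDSC (-0.22) and 1456940_at gave -0.16, but 1434308_at had 445 and 497 (0.16), and the mean over the 3 was -0.07. Slc43a3, named in this family but known as a carrier of nucleobases, had 587 and 528 (-0.15). Of the opposite-strand records, Slc7a6os had 145 and 121 (-0.26) and Slc36a1os was below the floor with 78.1 and 69.7.

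Transporters that ATF4 is known to induce when amino acids run short were slightly below control on their brightest probe sets. All 7 above the floor (Slc7a1, Slc7a5, Slc1a5, Slc1a4, Slc38a2, Slc7a11 and Slc3a2) were below 0, where 50.7% of all genes were. They ran from -0.31 to -0.04, with a median of -0.10 against -0.002 over all genes. At 1.5-fold there were 0, against 0.948% of all genes higher and 1.42% lower. For Slc38a2 the side depends on the probe set, since 1 of its others differed by 0.08 and the mean over its probe sets was 0.0004. Slc1a4 was close to the floor with 89.4 and 83.3, and its other probe sets, both below the floor, differed by 0.08 and 0.06. The eighth, Slc7a3, was below the floor. The enzymes Asns, which makes asparagine (780 in control and 1052 in silncMDSC, 0.43), and Cth, which makes cysteine (32.2 and 84.2, the first below the floor, 2.57-fold higher), lay on the other side. They are among the highest of their lists. The serine enzymes Phgdh (-0.12), Psat1 (0.08), Psph (0.02) and Shmt2 (0.03) lay nearer to control. Of the enzymes named in this paragraph, Phgdh alone was below 0. Among the transporters with a CARE core in the promoter, Slc7a11 and Slc1a4 were below control and Slc7a7 above. Slc7a5, Slc1a5 and Slc7a3 had no promoter window, so they could not be searched.

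Amino acid transporters outside the 6 families also lay somewhat more often below control, among those above the floor. Of 32 measured, 20 were above the floor, 13 of them below 0 (65% against 50.7% of all genes). Their median was -0.05 against -0.002 over all genes, and it was 0.02 with no floor. None was 1.5-fold apart, against 0.948% of all genes higher and 1.42% lower. The farthest was Slc16a10, a carrier of tryptophan, tyrosine and phenylalanine, with 195 in control against 140 in silncMDSC, 1.39-fold lower. Slc25a12, the mitochondrial aspartate and glutamate carrier, had 1861 and 1511 (-0.30), the mitochondrial serine carrier Sfxn1 1323 and 1123 (-0.24), and Slc25a38, which carries glycine for haem synthesis, 173 and 199 (0.21).

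Genes that sense amino acids for mTORC1, other than Slc38a9, had a median near 0. Of 30 above the floor, 16 were above 0 and 14 below (46.7% below against 50.7% of all genes), with a median of 0.02. At 1.5-fold there were 0, against 0.948% of all genes higher and 1.42% lower. Fnip2 (-0.37) and Flcn (-0.20), partners that act on the Rag GTPases, were below control, as were Sec13 (-0.28) and the Rag GTPase Rraga (-0.24). Sesn2, a leucine sensor, had 250 and 293 (0.23).

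Some enzymes that use the carried amino acids were farther from 0 than any of the carriers. Among 17 glutamine and glutamate enzymes that reached the floor, 0 lay above control and 2 below it by 1.5-fold or more (0.948% and 1.42% of all genes, as for the lists that follow), namely Ctps, which makes CTP (412 in control against 239 in silncMDSC, 1.72-fold lower), and Ppat, the first enzyme of purine synthesis (232 and 146, 1.58-fold lower). Cad, which starts pyrimidine synthesis, differed by -0.51. The list had a median of -0.002, and Asns lay above control, as given above. Among 14 glutathione genes, Cth alone was 1.5-fold apart, and Chac1, which degrades glutathione, was higher (0.43) while Txnrd1 (-0.33) and Lap3 (-0.29) were lower. Of 9 serine and glycine enzymes, Gcsh, part of the glycine cleavage system, was 1.502-fold lower, and Dld (-0.18), Phgdh (-0.12) and Psat1 (0.08) were closer to 0. Of 22 genes of branched-chain and aromatic amino acid use, 0 were 1.5-fold apart, and the farthest were Hgd (0.54), Dbt (-0.49), Haao (0.47) and Kmo (0.43).

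**Figure D4:**
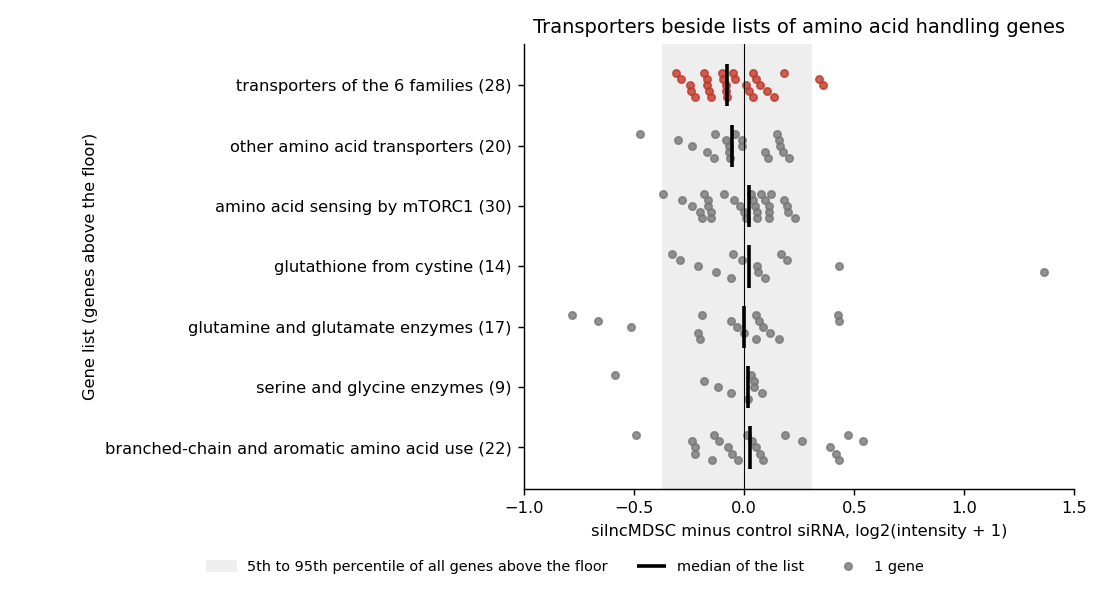
Difference between the arrays (x axis, silncMDSC minus control siRNA, log2(intensity + 1)) for genes above the floor in the transporter families (red) and in lists of related genes (grey), with the list median as a black line and the 5th to 95th percentile of all genes (-0.37 to 0.30) shaded. The transporters stay between -0.31 and 0.36, and of these Slc7a7 (0.36) and Slc38a9 (0.34) lie above the shading. Cth at 1.36 and Ctps at -0.78 lie farther outside it.

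The arrays had medians of 77.9 in control and 79.0 in silncMDSC. Markers of the cultured cells were present on both, with 9 of 9 measured MDSC markers above the floor and summed intensities of 51984 and 51186. Sums weigh the brightest probe sets most, here S100a8 (13474 and 13399) and S100a9 (13982.5 and 13879.6). Of the 9 markers, 3 were above control and 6 below, with Ccr2 (0.34) and Ltf (-0.19) the farthest on each side. Ly6g, which marks the neutrophil-like subset, had no probe set with 1 symbol here. The 6 macrophage markers, all above the floor, summed to 9907 in control and 8221 in silncMDSC. Of these, Mrc1 (1074 and 562) and Msr1 (1505 and 799) were farthest below control. C1qb and C1qc differed by -0.25 and -0.23, while Adgre1 (3070 and 3068) and C1qa (1419 and 1389) were nearly level. The 5 dendritic cell markers, all above the floor, summed to 7596 and 11046. The 6 eosinophil markers, 4 above the floor, summed to 3156 and 4381, with Prg2 (2022 and 2954) the brightest. The 4 were above control, while Ccr3 (38.55 and 37.47) and Il5ra (33.27 and 30.43), both below the floor, were slightly lower. The 5 mast cell and basophil markers, all above the floor, summed to 7180 and 7814. Of these, 4 were above control, Cpa3 (0.48) the farthest, and 1 below, Fcer1a (-0.44). T cell markers (4 of 5 above the floor) summed to 691 and 719, B cell markers (3 of 4) to 720 and 702, erythroid markers (0 of 3) to 147 and 138 and stromal markers (1 of 5) to 228 and 235. The macrophage sum was thus lower in silncMDSC, and the dendritic cell and eosinophil sums were higher. Whether such shifts have a part in the small differences of Slc7a7, Slc7a1 and the other carriers was not tested. In such mixed cultures, fewer cells of a type and less RNA per cell cannot be told apart.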

How the data were processed

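Total RNA (6 µg per culture) was labelled with biotin and hybridised to Affymetrix mouse genome arrays. The values deposited by the authors were linear probe set intensities, 1 column per array, with a lowest value of exactly 1. The submitters' processing notes name RMA, which usually returns log2 values. How the linear scale and the lower limit arose is not given in the sources. The scanner files were not used here.

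From these values, log2(intensity + 1) of silncMDSC minus control siRNA was computed for 45037 probe sets, leaving out 64 Affymetrix controls. Of these, 34945 had 1 symbol, 932 several and 9160 none. All 41 members were found by Entrez identifier in the RefSeq table of GRCm38.p6, with unchanged symbols. 1 further probe set, shared by Gm13872 and Slc1a2, was left out. The brightest probe set on average stood for a gene, which was analysed when its higher value reached the median of all probe sets. The study's methods name limma, which has no residual degrees of freedom with 1 array per group, so no test was run. The number of arrays limits the precision.

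Every transporter above the floor is named. Of other lists, genes at least 1.5-fold apart and up to 4 with the largest differences are named, and any further gene, such as Flcn, was chosen after its values were seen. The members, lists and motifs were chosen with earlier results of these data known. Protein identity between members, which had been planned, was not analysed here. The calculation was tested on simulated data with known folds. Python 3.11.15, pandas 2.3.3, numpy 2.4.6, statsmodels 0.14.6 and matplotlib 3.10.9 were used. Alternatives were the scaling (median centring, loess with span 0.3, quantile), a pseudocount of 16, other floors, the mean of a gene's probe sets, no cross-hybridising probe sets, the opposite-strand records and thresholds of 0.32 on the log2 scale and of 2-fold.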

Additional observations from a re-analysis of the deposited data

How the results depend on the processing

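The transporters' median difference stayed below 0 under each of 10 alternatives, from -0.16 with the floor at the 75th percentile to -0.06 after another quantile normalization, while that of all genes ran from -0.02 to 0.01. The counts of transporters at least 1.5-fold apart stayed at 0 in both directions under each change of scaling, pseudocount, floor and probe sets and at 2-fold, and at a threshold of 0.32 on the log2 scale 2 were higher (1 in Slc7 and 1 in Slc38). Of the 28 transporters, 26 kept their sign under the alternatives that gave a value. The exceptions were Slc36a3, and Slc38a2 with the mean of its probe sets. The probe set SD of 0.099 served as the limit for calling a median moved. By it, the Slc1 median moved to -0.10 with no floor and -0.17 with the floor at the 75th percentile, and the Slc38 median to -0.082 with the latter, where fewer genes remain.

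At the threshold of 0.32, 4.45% of all genes were higher and 6.95% lower. Other transporters had 1 of 20 lower, mTORC1 sensing 1 of 30 and serine and glycine enzymes 1 of 9. Of 14 glutathione genes, 2 were higher and 1 lower. Of 17 glutamine and glutamate enzymes, 2 were higher and 3 lower. Of 22 branched-chain and aromatic genes, 5 were higher and 1 lower. At 2-fold the counts of lower glutamine enzymes and of lower serine and glycine enzymes were 0. The 1 glutathione gene higher, Cth, was lost (0) under the higher floor and under a floor on the arrays' mean. The 1 lower serine and glycine enzyme, Gcsh, was lost (0) with the loess trend removed, after another quantile normalization and with a pseudocount of 16, and there were 2 without _x_at and _s_at probe sets. The cause of that last change was not tested. No paired analysis was possible because each group has 1 array, and for the same reason no replicate could be left out. Dim members are the least certain, since 12 of the 28 lie below the 75th percentile.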
